A study of Canis lupus familiaris with 16 samples.

Results

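The genes described here are 8 members of the Hippo pathway and its transcriptional output: the coactivators YAP1 and WWTR1 (the gene of TAZ), their DNA-binding partner TEAD1, the pathway's inhibitors LATS2 and AMOTL2, and the target genes CCN1, CCN2 and ANKRD1. They were taken by symbol from the deposited count tables, and all 8 were found among 39543 gene symbols and passed the filter on low counts. The libraries came from 4 hepatocellular carcinoma cell lines made from liver tumours of dogs and named KU-cHCC with the numbers 001, 002, 004 and 005, which the labels call primary cultured lines. Each line received sorafenib at 30 µM, toceranib at 15 µM, Dulbecco's phosphate-buffered saline (DPBS, the vehicle of toceranib) or dimethyl sulfoxide (DMSO, the vehicle of sorafenib) for 24 h. Each treatment had 4 libraries, 1 per line, so 16 in all. Every line was grown in Advanced DMEM with fetal bovine serum and N-acetyl-L-cysteine. Sorafenib is an inhibitor of RAF and of growth factor receptor kinases, and toceranib is a veterinary inhibitor of KIT and related receptors.

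In the Hippo pathway, the kinases STK3 and STK4 with their scaffold SAV1 activate LATS1 and LATS2, and these phosphorylate YAP and TAZ, which holds them in the cytoplasm. Unphosphorylated YAP and TAZ enter the nucleus, bind TEAD factors and switch on genes such as CCN1, CCN2 and ANKRD1, together with their own inhibitors LATS2 and AMOTL2. In the liver the pathway restrains organ size and takes part in the choice between hepatocyte and bile duct fate. The transcript of YAP1 or WWTR1 measures neither the phosphorylation nor the location of its protein. The activity of the pathway is usually read from its target transcripts.

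Total counts lay between 12008366 and 21943572 per library, the lowest being the toceranib library of KU-cHCC-005. Levels are given as CPM, the read count relative to library size after TMM scaling, and were not compared between genes, since transcript lengths were not used here. Of 6 measured hepatocyte markers, ALB did not exceed 0.423 CPM, APOA1 did not exceed 0.327 CPM and SERPINA1 was at 0 in every library, while APOB reached 167 CPM and HNF4A 118 CPM in DPBS libraries. The bile duct keratin KRT7 stood at 3609 to 7683 CPM in all libraries of 3 lines and in all DPBS libraries. In the other libraries of KU-cHCC-001, KRT7 stood at 241 to 296 CPM. The DPBS libraries did not match the lines on their labels. They formed close pairs, 002 with 005 and 001 with 004. The median squared difference of their counts was 2.29 and 2.45 times that of sampling noise alone. For any other pair of the 16 libraries it was at least 11.3 times. Drugs were therefore compared with DMSO of the same line in the 12 sorafenib, toceranib and DMSO libraries, and the comparison with DPBS is given after it. Both comparisons use the same 4 DMSO libraries. DMSO is not the vehicle of toceranib, so in that comparison drug and vehicle cannot be told apart. The labels do not say that the libraries of a line came from separate cultures, and the p-values measure the spread between these libraries.

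Connective tissue transcripts also set some libraries apart. COL3A1, a fibrillar collagen, stood at 51.6 and 6.53 CPM in the toceranib libraries of lines 005 and 004 and at 80.4 and 72.5 CPM in the DPBS libraries labelled 005 and 002, and at 0 in the other 12 libraries, all sorafenib and DMSO libraries among them. Of 11 measured mesenchymal and stromal markers, 9 reached 5 CPM in a toceranib library, 8 in a DPBS library, and 4 each in a sorafenib and a DMSO library. Their summed level was 1320 to 4925 CPM with toceranib, 1473 to 3011 CPM with DPBS, 2002 to 6936 CPM with sorafenib and 1495 to 6759 CPM with DMSO. VIM made up most of that sum. Without VIM, a choice made after the values were seen, the other 10 markers summed to 869 CPM with toceranib of KU-cHCC-005, 1052 and 928 CPM in the DPBS libraries labelled 005 and 002, 233 CPM with toceranib of KU-cHCC-004 and at most 212 CPM in each of the other libraries. TAGLN made up most of this sum in turn, at 519 CPM with toceranib of KU-cHCC-005 and 622 and 544 CPM in those DPBS libraries. It stood at 190 CPM with toceranib of KU-cHCC-004. In the DMSO library of KU-cHCC-004 it gave 210 of the 212 CPM, with COL3A1, LUM and DCN at 0. TAGLN and ACTA2 are also among the genes of the actin cytoskeleton listed below, so the sum is not a measure of connective tissue alone. The part of these transcripts in the results below was not tested. After the DPBS pairs, the closest libraries were toceranib of KU-cHCC-005 and the DPBS library labelled 002, at 11.3 times the squared difference of sampling noise. Next came toceranib of KU-cHCC-005 with toceranib of KU-cHCC-004 (12.3) and with the DPBS library labelled 005 (14.1). Where a toceranib comparison is given without the toceranib library of KU-cHCC-005, the value stands beside the one with it. In bulk libraries, more cells of a type and more RNA per cell cannot be told apart.

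YAP1, the coactivator at the end of the Hippo kinase cascade, rose with sorafenib in all 4 lines. YAP1 stood at 282, 401, 425 and 385 CPM in the sorafenib libraries of lines 001, 002, 004 and 005, against 184, 225, 270 and 223 CPM in the DMSO libraries (always in this order of lines). Every sorafenib library was above every DMSO library, a pattern that 6.6% of the 14938 genes tested also showed. The mean was 373 ± 63.2 CPM with sorafenib and 225 ± 35 CPM with DMSO (SD, n = 4 each). The log2 fold change was 0.70 ± 0.14 (SE; edgeR quasi-likelihood test with Benjamini-Hochberg adjustment over all genes tested, adjusted p = 0.00857), and the log2 ratios of the lines ran from 0.61 to 0.83. YAP1 was the 1 of 8 genes that passed, while 19.6% of all genes tested passed in this comparison, 9.59% as higher and 10.1% as lower, so the count does not set these genes apart. The size of the YAP1 change kept to 0.66 to 0.75 when any line was left out. Its edgeR adjusted p was 0.00927 without KU-cHCC-001, 0.0573 without KU-cHCC-002, 0.0627 without KU-cHCC-004 and 0.0638 without KU-cHCC-005. All of these fits have equally fewer libraries, so the call depends on which line is left out.

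WWTR1, the paralogue of YAP1, did not pass with sorafenib. It stood at 202, 156, 262 and 128 CPM with sorafenib and at 215, 110, 198 and 138 CPM with DMSO, higher in 2 lines and lower in 2. The log2 fold change was 0.16 ± 0.19 (edgeR adjusted p = 0.601). TEAD1, the member of the TEAD family on the list, stood at 255, 246, 213 and 118 CPM with sorafenib and at 213, 278, 181 and 133 CPM with DMSO. Its log2 fold change of 0.04 ± 0.22 (edgeR adjusted p = 0.922) was smaller than its error. TEAD1 was lower with sorafenib in lines 002 and 005, and WWTR1 in lines 001 and 005.

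Of the inhibitors, LATS2, the kinase that phosphorylates YAP and TAZ, stood at 32.2, 55.6, 89.6 and 40.2 CPM with sorafenib and at 28.4, 37.7, 53.2 and 32.8 CPM with DMSO. It was higher in 4 of 4 lines, as were 26.3% of all genes tested, but the ranges overlapped and the log2 fold change of 0.44 ± 0.25 did not pass (edgeR adjusted p = 0.237). AMOTL2, an angiomotin family protein that holds YAP at cell junctions, stood at 83.3, 79.0, 120 and 101 CPM with sorafenib and at 106, 61.6, 118 and 93.7 CPM with DMSO. The means of AMOTL2, 95.7 ± 18.6 CPM and 95.0 ± 24.4 CPM (SD, n = 4 each), were close to each other, and its log2 difference of -0.0026 ± 0.21 was far smaller than its error.

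None of the 3 target genes passed with sorafenib in the 12 libraries. CCN2, a matrix-associated growth factor also known as CTGF, stood at 9.66, 29.6, 84.1 and 33.6 CPM with sorafenib and at 28.9, 45.9, 138 and 58.8 CPM with DMSO. Every line had less CCN2 with sorafenib than with its own DMSO, as 24.5% of genes did, while the lines themselves differed more than that, so the groups overlapped. The log2 fold change was -1.0 ± 0.42 (edgeR adjusted p = 0.117). CCN2 passed when the 8 libraries of sorafenib and DMSO were fitted alone, at -0.95 ± 0.17 (edgeR adjusted p = 0.00458), where the spread is estimated without the toceranib libraries. In those 8 libraries LATS2 passed as well (0.42 ± 0.14, edgeR adjusted p = 0.0405) and YAP1 kept its call (0.69 ± 0.10, edgeR adjusted p = 0.00215). The background is higher there too, at 18.3% of 13821 genes called higher and 18.2% called lower.

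CCN1, the sister gene of CCN2 also known as CYR61, stood at 261, 392, 751 and 575 CPM with sorafenib and at 527, 289, 660 and 555 CPM with DMSO. It was lower with sorafenib in KU-cHCC-001 alone, at a log2 ratio of -1.01, and higher in the other 3 lines, at 0.05 to 0.44. ANKRD1, a muscle ankyrin repeat protein widely used as a YAP reporter gene, showed the same split, with 5.57, 9.91, 31.8 and 49.6 CPM with sorafenib and 12.1, 7.65, 30.9 and 37.8 CPM with DMSO. Neither passed (edgeR adjusted p = 0.815 for CCN1 and 0.811 for ANKRD1). The difference between KU-cHCC-001 and the mean of the other 3 lines in the sorafenib effect was -1.25 ± 0.51 for CCN1 and -1.38 ± 0.70 for ANKRD1 on the log2 scale, and did not pass for either (edgeR adjusted p = 0.662 and 0.761). This test was added after the values were seen, rests on 1 library of KU-cHCC-001 per treatment, and called 0 of 14938 genes for sorafenib.

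**Figure D1:**
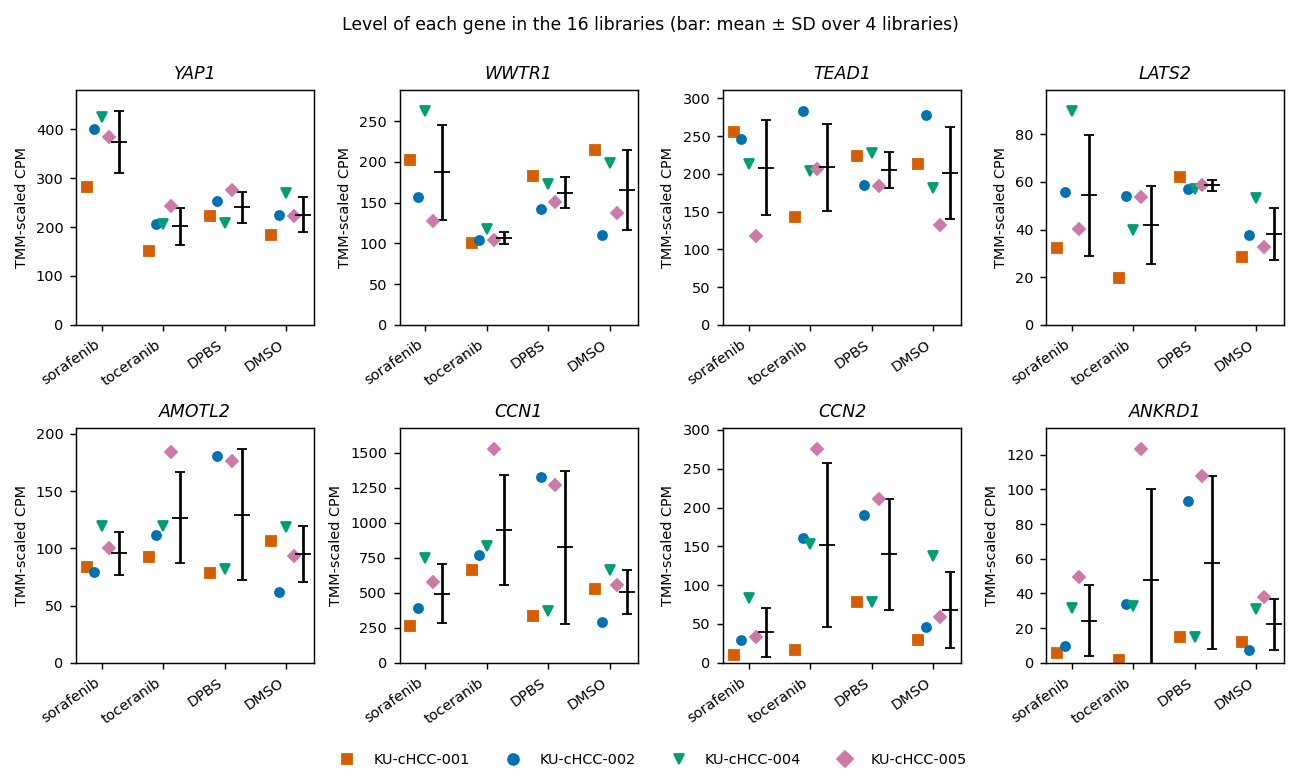
TMM-scaled CPM of the 8 genes (vertical axes, from 0) in the sorafenib, toceranib, DPBS and DMSO libraries, with a symbol per line label and, to the right of the symbols, the mean ± SD of the 4 libraries (the lower bar of ANKRD1 with toceranib ends at the axis). YAP1 is above all DMSO values in the 4 sorafenib libraries, WWTR1 lies at 99.8 to 118 CPM with toceranib, and CCN1, CCN2, ANKRD1 and AMOTL2 are high in the toceranib library of KU-cHCC-005 and in the DPBS libraries labelled 002 and 005.

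Toceranib against DMSO gave another picture, in which target genes were higher in 3 or 4 lines and WWTR1 was lower. CCN1 stood at 660, 771, 832 and 1524 CPM with toceranib and at 527, 289, 660 and 555 CPM with DMSO. It was higher in 4 of 4 lines, as were 15.3% of all genes tested, and the lowest toceranib value lay just above the highest DMSO value, a separation seen for 3.98% of genes. The means were 947 ± 391 CPM with toceranib and 508 ± 157 CPM with DMSO (SD, n = 4 each). The log2 fold change of 0.88 ± 0.27 did not pass (edgeR adjusted p = 0.0697), and without the toceranib library of KU-cHCC-005 it was 0.69 ± 0.29 (edgeR adjusted p = 0.219). Without a filter on low counts its adjusted p was 0.0465, and DESeq2 called it at 0.90 ± 0.28 (DESeq2 adjusted p = 0.0165). In all, 0 of the 8 genes passed in edgeR, 2 had an unadjusted p under 0.05, and DESeq2 called 1. Of all 14938 genes tested, 7.46% passed in edgeR, 4.31% as higher and 3.15% as lower. CCN1 was called among 2.72% of genes higher without the filter and 9.18% higher in DESeq2.

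CCN2 stood at 16.6, 161, 153 and 275 CPM with toceranib and at 28.9, 45.9, 138 and 58.8 CPM with DMSO. ANKRD1 stood at 1.64, 33.8, 32.9 and 123 CPM with toceranib and at 12.1, 7.65, 30.9 and 37.8 CPM with DMSO. Both were lower with toceranib in KU-cHCC-001 and higher in the other 3 lines, by little in KU-cHCC-004 (log2 ratios of 0.15 and 0.09) and by far more in KU-cHCC-002 (1.80 and 2.07) and KU-cHCC-005 (2.21 and 1.69). AMOTL2 followed the same order, with 92.3, 112, 120 and 184 CPM with toceranib and 106, 61.6, 118 and 93.7 CPM with DMSO. The log2 fold changes over the 4 lines were 0.96 ± 0.44 for CCN2, 0.54 ± 0.63 for ANKRD1 and 0.42 ± 0.21 for AMOTL2, and none of these 3 passed (edgeR adjusted p = 0.183, 0.611 and 0.22). Each was over 1.5 times smaller without the toceranib library of KU-cHCC-005, at 0.46 ± 0.39 for CCN2, 0.16 ± 0.70 for ANKRD1 and 0.23 ± 0.21 for AMOTL2 (edgeR adjusted p = 0.544, 0.924 and 0.581).

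Without KU-cHCC-001, the line with the lowest ratios of CCN1, CCN2, ANKRD1 and AMOTL2, these targets passed. Leaving out the line with the lowest ratios raises the estimates by itself. Over the fits with a line left out, 0 to 4 of the 8 genes were called higher, this fit having the most. The ANKRD1 estimate ran from -0.13 to 1.39 over those fits. In the 9 sorafenib, toceranib and DMSO libraries of the other 3 lines, CCN1 rose with toceranib by a log2 fold change of 1.13 ± 0.26 (edgeR adjusted p = 0.015), CCN2 by 1.52 ± 0.38 (edgeR adjusted p = 0.0242), ANKRD1 by 1.39 ± 0.33 (edgeR adjusted p = 0.0187) and AMOTL2 by 0.66 ± 0.20 (edgeR adjusted p = 0.0412). That is 4 of 8 genes, against 12.1% of 14818 genes called higher in the same fit. The calls did not hold without the toceranib library of KU-cHCC-005, which holds the stromal transcripts given above. With that library left out as well, the estimates were 0.87 ± 0.28 for CCN1, 1.04 ± 0.34 for CCN2, 1.23 ± 0.40 for ANKRD1 and 0.44 ± 0.22 for AMOTL2, and 0 of 8 passed (edgeR adjusted p = 0.0868, 0.0892, 0.0882 and 0.213), against 4.57% of genes called higher. In KU-cHCC-002, whose toceranib library had COL3A1, LUM and DCN at 0 and a stromal sum of 23.8 CPM against 34.9 CPM with DMSO, the log2 ratios were 1.42 for CCN1, 1.80 for CCN2, 2.07 for ANKRD1 and 0.85 for AMOTL2. That line has 1 library per treatment, so these ratios have no test of their own. Its DMSO library was the lowest DMSO library for CCN1 (289 CPM), ANKRD1 (7.65 CPM) and AMOTL2 (61.6 CPM). For CCN2 it was not (45.9 CPM, against 28.9 CPM in KU-cHCC-001).

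ANKRD1 had its lowest level of all 16 libraries in the toceranib library of KU-cHCC-001, where it rested on 39 counts. The toceranib effect in KU-cHCC-001 minus the mean effect in the other 3 lines was -4.28 ± 0.77 on the log2 scale for ANKRD1, -2.33 ± 0.77 for CCN2, -0.86 ± 0.41 for AMOTL2 and -0.81 ± 0.51 for CCN1. These differences were computed after the values were seen, and KU-cHCC-001 has 1 library per treatment, which is assumed to vary like those of the other lines, so they describe these libraries and do not show that the lines respond differently. The antigen presentation gene CD74 stood at 319 CPM and the endothelial gene PECAM1 at 13.2 CPM in that library, against at most 5.23 and 0.259 CPM in the other 15, while PTPRC, which marks leukocytes, was at 0 there and CDH5, which marks endothelium, at 0.0419 CPM. Their part in the result was not tested.

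Neither coactivator passed with toceranib. WWTR1 stood at 99.8, 104, 118 and 104 CPM with toceranib and at 215, 110, 198 and 138 CPM with DMSO. It was lower in 4 of 4 lines, as were 14.8% of genes, most in KU-cHCC-001 (log2 ratio of -1.10) and least in KU-cHCC-002 (-0.08), and the toceranib values were close together while the DMSO values were spread out. The log2 fold change was -0.58 ± 0.19 and did not pass (edgeR adjusted p = 0.0836), nor did it without the toceranib library of KU-cHCC-005 (-0.70 ± 0.22, edgeR adjusted p = 0.131). YAP1 stood at 150, 207, 207 and 242 CPM with toceranib and at 184, 225, 270 and 223 CPM with DMSO (log2 fold change -0.17 ± 0.14, edgeR adjusted p = 0.479). TEAD1 stood at 142, 283, 203 and 206 CPM with toceranib and at 213, 278, 181 and 133 CPM with DMSO (0.10 ± 0.23, edgeR adjusted p = 0.813), and turned to -0.15 ± 0.21 without the toceranib library of KU-cHCC-005. LATS2 stood at 19.6, 54.3, 39.9 and 53.8 CPM with toceranib and at 28.4, 37.7, 53.2 and 32.8 CPM with DMSO (0.11 ± 0.25, edgeR adjusted p = 0.808), and turned to -0.15 ± 0.25 without that library.

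**Figure D2:**
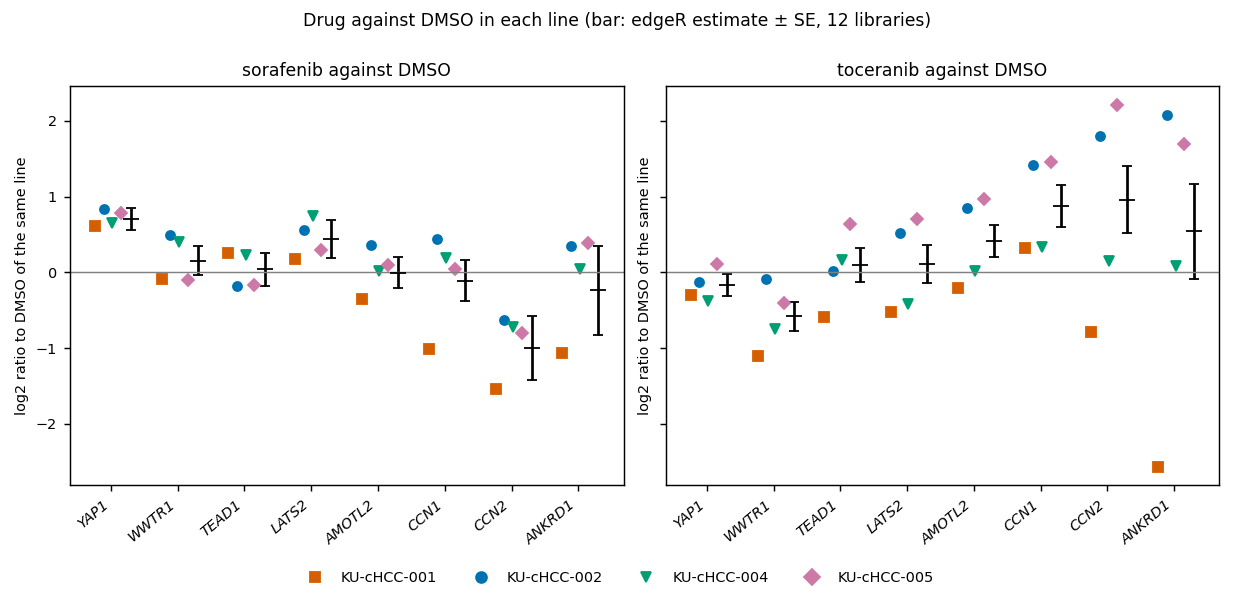
Log2 ratio of each drug to DMSO of the same line, from log2(CPM + 0.5), for the 8 genes, with sorafenib on the left and toceranib on the right; symbols are lines and bars the edgeR estimate ± SE over 12 libraries. With sorafenib, YAP1 lies above 0 and CCN2 below 0 in all 4 lines, and with toceranib KU-cHCC-001 lies below 0 for CCN2 (-0.78), ANKRD1 (-2.57) and AMOTL2 (-0.20) while the other lines lie above it.

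Set against each other, the drugs differed in both coactivators and in both CCN genes. The doses (30 and 15 µM) and the vehicles differ too, so the comparison is between these treatments as given. YAP1 was 1.83-fold higher with sorafenib than with toceranib (log2 0.87 ± 0.15, edgeR adjusted p = 0.0013) and WWTR1 1.67-fold higher (0.74 ± 0.19, edgeR adjusted p = 0.0124), each in 4 of 4 lines, as 23.5% of genes were, and with no overlap between the groups, which 10.9% of genes showed. CCN2 was lower with sorafenib in 4 of 4 lines, as 23.4% of genes were, at a log2 difference of -1.96 ± 0.44 (edgeR adjusted p = 0.00598), and CCN1 likewise at -0.99 ± 0.27 (edgeR adjusted p = 0.0159). Of the 8 genes 2 passed as higher and 2 as lower, against 18.3% and 20.1% of all genes tested and 38.4% in either direction, so passing is common in this comparison.

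Which of these differences hold depends on the libraries. YAP1 passed under every alternative run for this comparison, with adjusted p from 0.00249 to 0.0186 when a line was left out. Without the toceranib library of KU-cHCC-005, CCN2 kept its call at -1.46 ± 0.39 (edgeR adjusted p = 0.0211) and WWTR1 at 0.84 ± 0.22 (edgeR adjusted p = 0.0168), with 12.6% of genes called higher and 14.7% lower, but CCN1 did not pass at -0.80 ± 0.29 (edgeR adjusted p = 0.0648). CCN1 also missed without KU-cHCC-002 (edgeR adjusted p = 0.0516) and without KU-cHCC-005 (edgeR adjusted p = 0.109), and WWTR1 missed without KU-cHCC-004 (edgeR adjusted p = 0.0998). CCN2 missed without the filter on low counts (edgeR adjusted p = 0.0537), and CCN2, CCN1 and WWTR1 missed when the line was not in the fit (edgeR adjusted p = 0.123, 0.109 and 0.065). ANKRD1 (-0.78 ± 0.59), AMOTL2 (-0.42 ± 0.21), LATS2 (0.33 ± 0.25) and TEAD1 (-0.06 ± 0.23) did not pass over the 4 lines, and ANKRD1 passed without KU-cHCC-001 (-1.15 ± 0.33, edgeR adjusted p = 0.0165), where 24.4% of genes were called lower.

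Against DPBS, the vehicle named for toceranib, no gene passed in edgeR: 0% of 15515 genes in either direction, with 1875 at an unadjusted p under 0.05, and 92 higher and 175 lower in DESeq2. These values rest on DPBS labels that the libraries do not bear out, and no DPBS library had the low KRT7 of KU-cHCC-001. WWTR1 stood at 99.8 to 118 CPM with toceranib and at 142 to 183 CPM with DPBS, and LATS2 at 19.6 to 54.3 CPM with toceranib and at 56.9 to 61.9 CPM with DPBS. With YAP1, these were the 3 genes lower in 4 of 4 line labels, as were 10.8% of all genes. WWTR1 and LATS2 were below every DPBS library, a separation that 5.63% of genes showed, at log2 differences of -0.59 ± 0.18 for WWTR1 (edgeR adjusted p = 0.255) and -0.57 ± 0.28 for LATS2 (edgeR adjusted p = 0.437).

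Target levels differed between the pairs of DPBS libraries. CCN1 stood at 337, 1325, 368 and 1273 CPM in the DPBS libraries labelled 001, 002, 004 and 005, CCN2 at 78.6, 191, 78.0 and 211 CPM, ANKRD1 at 14.6, 93.2, 15.1 and 108 CPM, and AMOTL2 at 78.3, 181, 81.8 and 177 CPM. The high pair, 002 and 005, is the pair with COL3A1 transcripts, and the part of those transcripts in these levels was not tested. The pair 001 and 004 had COL3A1 at 0 and CCN1 levels within the range of the DMSO libraries, 289 to 660 CPM. YAP1 (222, 254, 208 and 277 CPM) and TEAD1 (224, 185, 227 and 184 CPM) are given for comparison.

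**Figure D3:**
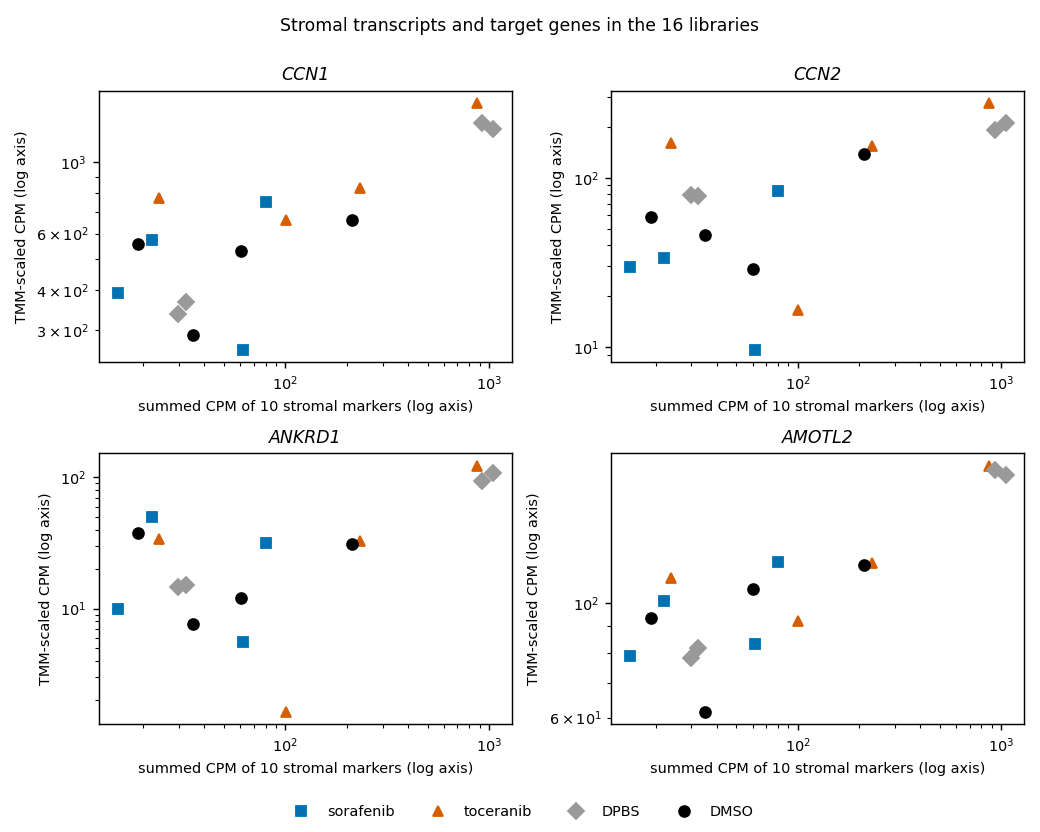
CPM of CCN1, CCN2, ANKRD1 and AMOTL2 (vertical, log axis) against the summed CPM of 10 mesenchymal and stromal markers other than VIM (horizontal, log axis) in 16 libraries, with a symbol per treatment. The 3 libraries at 869 to 1052 CPM of stromal markers, toceranib of KU-cHCC-005 and the DPBS libraries labelled 002 and 005, have the highest CCN1, CCN2, ANKRD1 and AMOTL2 of all libraries, and the toceranib library of KU-cHCC-001 lies lowest for ANKRD1 at 1.64 CPM. TAGLN, also listed below among genes of the actin cytoskeleton, makes up most of the marker sum in these 3 libraries.

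Ordered by mean level, YAP1 was highest with sorafenib (373 CPM), followed by DPBS (240 CPM), DMSO (225 CPM) and toceranib (201 CPM), and only the step below sorafenib exceeded the spread between libraries. For WWTR1 the order was sorafenib (187 CPM), DMSO (165 CPM), DPBS (162 CPM) and toceranib (107 CPM), and here the step above toceranib did. TEAD1 means lay between 201 and 209 CPM in the 4 treatments, with SDs of 23.9 to 62.8 CPM. For CCN1, ANKRD1, AMOTL2 and LATS2, every neighbouring pair of treatments differed by less than the larger SD. The same held for CCN2 except for the step between DPBS (140 CPM) and DMSO (67.9 CPM).

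Some of the genes varied together. Over the 12 sorafenib, toceranib and DMSO libraries, log2 levels of CCN1 and AMOTL2 correlated at a Pearson r of 0.918, CCN2 and ANKRD1 at 0.798, and CCN1 and CCN2 at 0.769. With the mean of each line removed these values were 0.896, 0.695 and 0.833. YAP1 and LATS2 gave 0.713 and 0.661, and YAP1 and WWTR1 gave 0.486 and 0.74. YAP1 and CCN2 gave -0.014 and, within lines, -0.646. These libraries share lines and treatments and are not independent, so the values are descriptions.

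The tested genes most like CCN1 over these 12 libraries were LOC102154806 (r = 0.934), AMOTL2 (0.918), LOC102157082 (0.917), LOC119871838 (0.915) and LOC102154724 (0.892). CCN2 was most like C2CD2 (0.955), SOX7 (0.943), PATJ (0.941), VEPH1 (0.94) and KIFC3 (0.94). ANKRD1 was most like LOC477699 (0.93), LOC482987 (0.93), NPNT (0.926), COL4A5 (0.913) and CTRL (0.912). AMOTL2 is the 1 other member of the 8 genes that appears in these lists.

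Among 33 further regulators of the pathway, 32 were tested. With sorafenib, 3 rose and 2 fell against DMSO and 27 did not pass, with a median log2 fold change of 0.14, against -0.02 over all genes tested. With 9.59% of all genes called higher and 10.1% lower, these counts are at or below the background. STRN3, a striatin subunit of the STRIPAK phosphatase complex that holds the Hippo kinases inactive (0.62 ± 0.17, edgeR adjusted p = 0.0298), its partner SLMAP (0.55) and the upstream kinase TAOK1 (0.46) rose. The kinase TAOK2 was among those that fell (-0.97 ± 0.23, edgeR adjusted p = 0.0141). With toceranib, the angiomotin AMOT (1.89 ± 0.35, edgeR adjusted p = 0.0191) rose, and MOB1A, the coactivator of the LATS kinases (-0.66), and SLMAP (-0.63) fell, with 29 not passing and a median of -0.13, against -0.01 over all genes. The background there was 4.31% higher and 3.15% lower. AMOT stood at 22.1, 10.6, 5.12 and 22.2 CPM with toceranib and at 10.5, 2.41, 1.19 and 5.36 CPM with DMSO, higher in every line. It also stood at 28.6 and 23.9 CPM in the DPBS libraries labelled 002 and 005, so its level is as high in that vehicle pair.

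The kinases LATS1, STK4 and STK3 and the scaffold SAV1 did not pass against DMSO with either drug, although their estimates lay on opposite sides of 0. LATS2, given above, did not show this, with estimates above 0 for both drugs (0.44 with sorafenib and 0.11 with toceranib). LATS1, which acts beside LATS2, stood at 28.9, 9.26, 20.4 and 9.10 CPM with sorafenib, at 5.11, 5.36, 3.38 and 2.37 CPM with toceranib and at 17.8, 5.18, 7.41 and 5.36 CPM with DMSO. Its log2 fold change was 0.93 ± 0.32 with sorafenib (edgeR adjusted p = 0.0633) and -0.98 ± 0.34 with toceranib (edgeR adjusted p = 0.089). STK4 gave 0.48 ± 0.16 and -0.42 ± 0.16, STK3 0.29 ± 0.20 and -0.56 ± 0.20, and the scaffold SAV1 0.36 ± 0.18 and -0.36 ± 0.19, with adjusted p from 0.0527 to 0.331. The difference between the drugs passed for LATS1 (1.91 ± 0.34, edgeR adjusted p = 0.0018), STK4 (0.91, edgeR adjusted p = 0.00176), STK3 (0.85, edgeR adjusted p = 0.00801) and SAV1 (0.71, edgeR adjusted p = 0.0121), all higher with sorafenib in 4 of 4 lines, as were 23.5% of all genes, with 18.3% called higher and 38.4% called in either direction. Without the toceranib library of KU-cHCC-005 these 4 kept their calls (edgeR adjusted p = 0.00739, 0.00398, 0.0277 and 0.0433), where 12.6% of genes were called higher. LATS1 stood at 14.7, 9.83, 16.7 and 9.71 CPM in the DPBS libraries, above every toceranib library, a separation that 5.63% of genes showed. DESeq2 called LATS1 lower with toceranib than with DPBS (-1.64 ± 0.34, DESeq2 adjusted p = 0.000813), as it did SLMAP (-0.75) and STK4 (-0.89). edgeR called none of these 3 against DPBS. DESeq2 called 267 of 15515 genes in either direction there, and that comparison rests on DPBS labels that the libraries do not bear out. LATS1 had 28 counts in the toceranib library of KU-cHCC-005.

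The other TEAD factors and NF2 did not pass in either comparison with DMSO. TEAD2 gave -0.68 ± 0.23 with sorafenib (edgeR adjusted p = 0.0611) and -0.45 ± 0.23 with toceranib, and TEAD3 gave -0.33 ± 0.16 and 0.04 ± 0.16. TEAD4 gave -0.02 ± 0.17 and 0.05 ± 0.17, and NF2, the tumour suppressor merlin that activates the LATS kinases, gave 0.25 ± 0.15 and 0.04 ± 0.15. TEAD3 stood at 28.1 to 33.8 CPM in the drug and DMSO libraries of KU-cHCC-001 and at 58.7 to 96.5 CPM in those of the other 3 lines, a difference between lines that was not tested.

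Of 22 further genes described as YAP and TAZ targets, 20 were tested. With sorafenib, 4 rose and 1 fell and 15 did not pass, with a median of 0.19, against a background of 9.59% of all genes called higher and 10.1% lower. Of the genes that rose, GADD45A (2.79 ± 0.19, edgeR adjusted p = 9.69e-05) is also induced by DNA damage and endoplasmic reticulum stress, INHBA (1.94 ± 0.23) encodes an activin subunit, AREG (1.56 ± 0.32) a ligand of the EGF receptor, and PTPN14 (1.24 ± 0.29) a phosphatase that inhibits YAP. FJX1 fell (-1.22 ± 0.25, edgeR adjusted p = 0.00799). With toceranib, NT5E (2.82 ± 0.42, edgeR adjusted p = 0.0115), INHBA (1.23 ± 0.23) and GADD45A (1.01 ± 0.18) rose, FOXF2 (-2.65 ± 0.56) fell and 16 did not pass, with a median of 0.52, against a background of 4.31% higher and 3.15% lower. NT5E was higher with toceranib in 4 of 4 lines, at 49.5 CPM with toceranib and 3.65 CPM with DMSO in KU-cHCC-001 and at 1.19 to 1.74 CPM with toceranib and 0.181 to 0.452 CPM with DMSO in the other lines. It kept its call without KU-cHCC-001 (2.27 ± 0.52, edgeR adjusted p = 0.0152), on few counts. In lines 002, 004 and 005 NT5E had 21, 32 and 14 counts with toceranib and 3, 8 and 5 with DMSO. FOXF2 did not exceed 0.796 CPM in any toceranib library and stood at 6.93, 0.0602, 1.13 and 0 CPM with DMSO. It had 19, 0, 5 and 0 counts with toceranib and 133, 1, 20 and 0 with DMSO, so outside KU-cHCC-001 it had at most 20 counts in these libraries.

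INHBA, called for both drugs, stood at 92.8, 86.4, 57.1 and 107 CPM with sorafenib, at 47.5, 51.3, 48.5 and 59.7 CPM with toceranib and at 21.5, 21.8, 27.7 and 16.2 CPM with DMSO, so that no drug library overlapped with DMSO. Of all genes tested, 6.6% lay above DMSO without overlap with sorafenib and 3.98% with toceranib. In the DPBS libraries labelled 001, 002, 004 and 005 INHBA stood at 27.2, 44.2, 27.7 and 47.0 CPM, below every toceranib library but near the lowest in the pair 002 and 005. Of all genes tested, 3.91% were higher with toceranib than with DPBS without overlap.

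Of 22 genes of the actin cytoskeleton and of serum response factor (SRF), a factor that shares CCN1, CCN2 and ANKRD1 with YAP as targets, 20 were tested. With sorafenib 4 fell and 0 rose, with a median of -0.49, and 16 did not pass, against a background of 10.1% of all genes called lower and 9.59% higher. They were the cytoplasmic actin ACTG1 (-0.87 ± 0.21, edgeR adjusted p = 0.0147), the adhesion protein VCL (-0.76), SRF itself (-0.55) and its coactivator MRTFA (-0.53), each lower in 4 of 4 lines. ACTG1 stood at 2507, 3229, 4903 and 5021 CPM with sorafenib and at 3749, 7402, 9828 and 7803 CPM with DMSO. With toceranib 0 of 20 passed in edgeR (median -0.04), and DESeq2 called 1 higher and 1 lower. ACTG1 was lower with toceranib too in 4 of 4 lines, at 2534, 3384, 6347 and 5652 CPM. So was SRF, at 36.3, 25.1, 29.6 and 28.2 CPM with toceranib and 39.0, 47.0, 45.4 and 33.8 CPM with DMSO. Of all genes tested, 14.8% were lower with toceranib in 4 of 4 lines. VCL and MRTFA were lower with toceranib in some lines only.

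Several of these calls did not hold when a line was left out. Against DMSO, 0 Hippo regulators passed with either drug when KU-cHCC-002, KU-cHCC-004 or KU-cHCC-005 was left out. In the same fits 0 of the other targets passed with toceranib and 0 actin genes with sorafenib. Calls were made in each of these sets without KU-cHCC-001, a fit with as few libraries. The number of all genes called changed as well. With a line left out it ran from 280 to 1922 higher and 316 to 1984 lower with sorafenib. With toceranib it ran from 1 to 1798 higher and 0 to 1246 lower, so counts of 0 in these lists do not set them apart. Without the toceranib library of KU-cHCC-005, 0 Hippo regulators and 1 of the other targets passed with toceranib, in a fit that called 0.282% of genes higher and 0.141% lower. That target was NT5E (2.88 ± 0.48, edgeR adjusted p = 0.042).

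**Figure D4:**
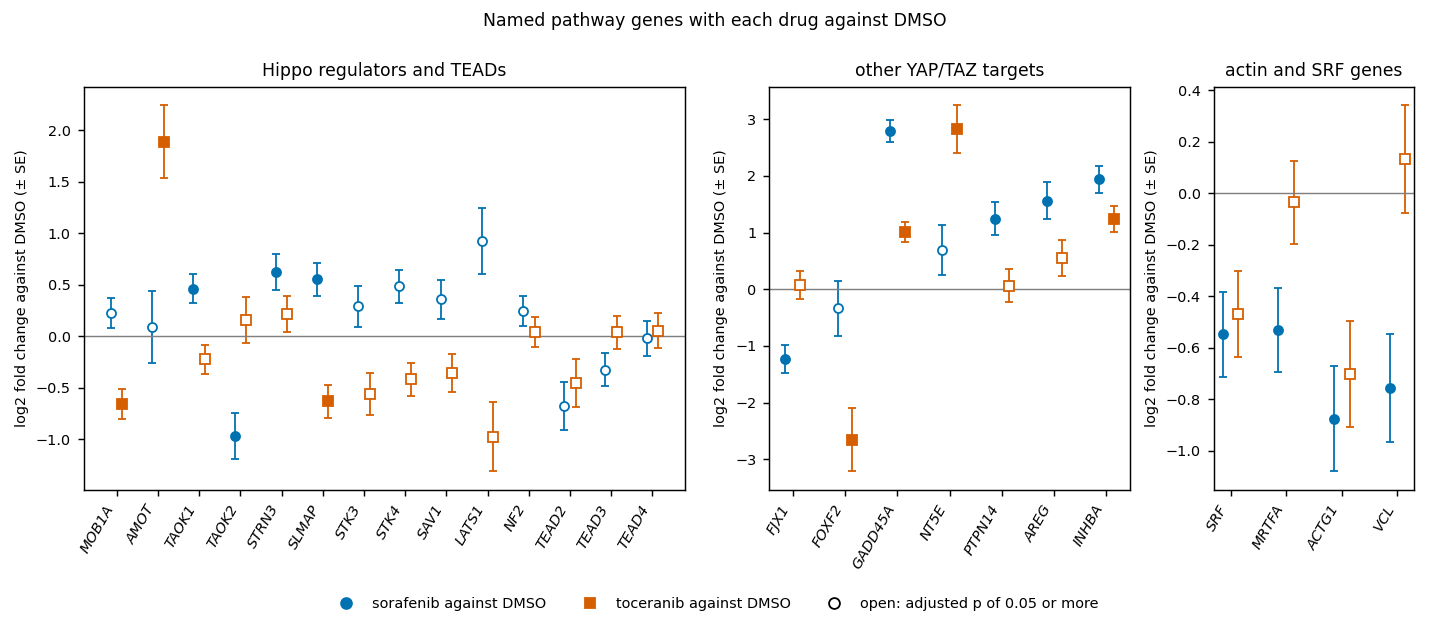
Log2 fold change against DMSO (vertical, ± SE) for sorafenib (circles) and toceranib (squares) of the listed genes named here, those that passed in either comparison and the core kinases, NF2 and the other TEAD factors; filled symbols have an edgeR adjusted p under 0.05. The estimates of LATS1, STK4, STK3 and SAV1 lie above 0 with sorafenib and below 0 with toceranib without passing, and INHBA and GADD45A are filled for both drugs.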

How the data were processed

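The authors deposited whole-number read counts per gene symbol, a table per library and without normalization. Per the labels' protocols, total RNA from Trizol went into NEBNext Ultra II Directional libraries. TopHat is named per the submitters' processing notes. For the counter, strand setting, annotation and genome build, the sources used here give no name; no coordinates are printed, and counts of overlapping or antisense genes are uncertain. Each table held 39954 entries, and entries of the same symbol were summed. All 8 symbols are in the RefSeq gene table of UU_Cfam_GSD_1.0, used for names alone. No promoter or protein sequence was used here.

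Fits used edgeR 4.0.16 in R 4.3.3: filterByExpr by treatment, TMM, and robust quasi-likelihood with treatment and cell line, on 12 libraries (6 residual degrees of freedom, common dispersion 0.0807) or, against DPBS, on 16 (9 and 0.158). Genes with an adjusted p under 0.05 were called. An SE is the size of the log2 fold change divided by the root of the F statistic. CPM use TMM factors of all 16 libraries, and line ratios a pseudocount of 0.5. The fits were tested on simulated data. Alternatives were DESeq2 1.42.0, its size factors, no filter, no line block, the arms alone, and left-out lines or libraries.

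Libraries of a line were paired by their labels. Deviations from treatment means correlated within lines at 0.515 to 0.892 among sorafenib, toceranib and DMSO, each of the 4 matching its own line best, and at -0.506 to 0.541 between toceranib and DPBS. The members, lists and tests were chosen with earlier results of these data known. The genes named are the 8 members, listed genes called against DMSO, the core kinases, NF2 and TEAD factors, and the 5 genes most like CCN1, CCN2 and ANKRD1. The values of 1 listed gene are not reported here.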

Additional observations from a re-analysis of the deposited data

Results flagged for a closer look

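ANKRD1 is given here for the toceranib effect in KU-cHCC-001 minus the mean effect in the other 3 lines, which was -4.28 on the log2 scale (SE 0.77). The estimates of the other members also lay below 0, from -0.20 for YAP1 to -2.33 for CCN2. The interaction term was chosen after the values were seen and rests on 1 library of KU-cHCC-001 per treatment, with 39 counts of ANKRD1 in its toceranib library, so it does not show that the lines differ. No library was flagged within its treatment for any of the 8 genes by Dixon's test, over 32 groups of 4. With 4 libraries per group this test flags only very wide gaps, so it does not show that the libraries are alike. The widest gap was 0.801 of the range, for CCN1 in the toceranib library of KU-cHCC-005.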

How the results depend on the processing

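Of 384 alternative values of the 8 genes' log2 fold changes, 325 kept their direction and their side of the threshold, 34 changed sign, 9 became called and 16 lost a call. For sorafenib minus DMSO (1433 genes higher and 1502 lower), the counts were 226 and 238 without the line block, 2535 and 2518 in the arms alone, and 280 to 1922 and 316 to 1984 with a line left out; 975 were lower in all 16 libraries. Of the 8 genes, the 1 called higher became 0 without the block, 2 in the arms alone and 0 to 1 with a line left out, and the 0 called lower became 1 in the arms alone. For toceranib minus DMSO (644 and 471), the counts were 0 and 0 without the block, 1372 and 963 in DESeq2, 105 and 24 in the arms alone, 322 and 235 in all 16 libraries, 44 and 22 without the toceranib library of line 005, 0 and 0 without those of 004 and 005, and 1 to 1798 and 0 to 1246 with a line left out. The 0 of 8 called higher became 1 without the filter, 1 in DESeq2 and 0 to 4 with a line left out. For sorafenib minus toceranib (2739 and 2998), the counts were 1112 and 1047 without the block, 1031 and 1410 without both toceranib libraries, and 1394 to 3130 and 1623 to 3620 with a line left out. Its 2 members called higher became 1 without the block, 1 without both libraries and 1 to 2 with a line left out. Its 2 called lower became 1 without the filter, 0 without the block, 1 in all 16 libraries, 1 without the toceranib library of 005 (with or without KU-cHCC-001), 1 without both and 1 to 3 with a line left out. For toceranib minus DPBS (0 and 0), the counts were 5 and 2 without the filter, 92 and 175 in DESeq2, and 1 higher without the toceranib library of 005 or both, or 0 to 1 with a line left out.

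The sign changes were all in values that did not pass over the 4 lines. Against DMSO with sorafenib, AMOTL2 was 0.0015 with DESeq2 size factors and in DESeq2, 0.017 without the filter, 0.0034 in the arms alone and -0.12 to 0.15 with a line left out. ANKRD1 was 0.11 without the block and -0.41 to 0.24 with a line left out, CCN1 -0.28 to 0.22 and TEAD1 -0.035 to 0.12. Against DMSO with toceranib, TEAD1 was -0.15 without the library of 005, -0.26 without both and -0.10 to 0.31 with a line left out, LATS2 -0.15 without that library and -0.12 to 0.35, and ANKRD1 -0.13 to 1.39. Between the drugs, TEAD1 was 0.015 without the filter, 0.18 and 0.29 without 1 or both libraries and -0.35 to 0.23 with a line left out. Against DPBS, TEAD1 was -0.0068 without the filter, -0.17 and -0.22 without 1 or both libraries, -0.25 without the DPBS libraries labelled 001, 002 and 004, and -0.18 to 0.20 with a line left out. CCN1 was -0.074 without those DPBS libraries, CCN2 0.12 without the block and -0.63 to 0.23 with a line left out (-0.75 without the toceranib library of 005), and AMOTL2 0.064 in the arms alone and -0.19 to 0.25. Without the block, YAP1 with sorafenib had 0.71 (edgeR adjusted p = 0.0713). The cause of these changes was not tested.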

Other observations

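Other listed targets, chosen after their values were seen, differed between the drugs without passing against DMSO. EDN1, which encodes the vasoconstrictor peptide endothelin 1, stood at 5.18, 29.1, 54.7 and 77.6 CPM with sorafenib and at 2.52, 191, 420 and 677 CPM with toceranib, and was lower with sorafenib in 3 of 4 lines (-2.38 ± 0.61, edgeR adjusted p = 0.0109, and -2.07 ± 0.66 with 0.0402 without the toceranib library of KU-cHCC-005). KU-cHCC-001 was the exception. THBS1, a matrix glycoprotein, stood at 246, 139, 246 and 120 CPM with sorafenib and at 203, 605, 415 and 845 CPM with toceranib, again lower in 3 of 4 lines (-1.52 ± 0.46, edgeR adjusted p = 0.0232). THBS1 did not pass without that library (-0.91 ± 0.37, edgeR adjusted p = 0.0863). EDN1 stood at 564 and 585 CPM in the DPBS libraries labelled 002 and 005 and at 87.9 and 83.4 CPM in those labelled 001 and 004, the division seen for CCN1. ASAP1, a regulator of ARF GTPases, went the other way, with 155, 51.1, 91.5 and 48.3 CPM with sorafenib and 88.3, 40.2, 18.9 and 17.6 CPM with toceranib (1.14 ± 0.29, edgeR adjusted p = 0.0105), and kept its call without that library (1.05 ± 0.33, edgeR adjusted p = 0.0388). In the comparison of the drugs 38.4% of all genes passed.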
